A study of Homo sapiens with 44 samples.

Results

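The human genes with a YEATS domain are YEATS4, which encodes GAS41, YEATS2, MLLT1, which encodes ENL, and MLLT3, which encodes AF9. These 4 genes were taken by symbol from the 2 deposited RNA tables. They are 4 of 18797 genes in the table of the GAS41 experiment and 4 of 21159 in the table of the doxorubicin experiment, and all 4 passed the filter on low reads in both. The cells were HCT116, an established line from a human colon carcinoma, labelled p53+/+. The series concerns GAS41 in the repression of transcription and as a reader of crotonylated lysine 27 of histone H3.

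A YEATS domain has an aromatic pocket that holds a histone lysine carrying an acetyl or crotonyl group. GAS41 is a subunit of the TIP60 acetyltransferase and the SRCAP remodeller, which deposits the histone variant H2A.Z. YEATS2 is a scaffold of the ATAC acetyltransferase complex. ENL and AF9 are close paralogs that link acylated chromatin to the super elongation complex and to the methyltransferase DOT1L, and both are known as fusion partners of KMT2A in leukaemia.

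The GAS41 experiment had 4 groups of 3 libraries of poly-A RNA. WT was HCT116 with unedited GAS41, and GAS41-KO was the knockout line. The wt rescue and mut rescue groups were GAS41-KO cells with a stably expressed GFP-Flag-GAS41 transgene, either normal or carrying Y74A and W93A, changes of residues of the aromatic pocket. The doxorubicin experiment compared 3 libraries of WT HCT116 p53+/+ given 500 nM doxorubicin (Dox), a topoisomerase poison that breaks DNA, with 3 given the solvent DMSO. The time of exposure, the number of clones behind each line, the exon that was disrupted and the promoter of the transgene are not given in the sources used here. The labels call the GAS41 replicates biological and give 2 to 3 biological replicates per condition for the other experiment. If some of them came from 1 culture, the tests reflect technical spread there.

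Depth lay between 16857982 and 18894312 reads per library over both experiments. Levels are given in normalized reads (reads divided by a size factor that corrects for depth), and group values are means ± SD (n = 3). Changes are differences of the deposited log2 values, with the 95% interval from limma, and a gene was called at a limma adjusted p under 0.05 over all genes tested. The deposited scale compresses genes of few reads, so a log2 change can be smaller than the fold beside it. Of 13 colon epithelium markers 10 passed the filter in the GAS41 experiment and 11 in the other, while none of 7 blood and immune markers did in either. Of fibroblast markers 2 of 8 passed in each, and of endothelial markers 0 and 2 of 5. The summed level of the colon markers was 59600 to 63400 in the WT libraries, 65300 to 67200 in the knockout, 79000 to 92300 in wt rescue and 67200 to 81500 in mut rescue. Their part in the results was not tested. The wt rescue libraries also differed in long transcripts, where the median over 40 genes, relative to WT, was -0.1, -0.38 and -0.33 (log2) in replicates 1, 2 and 3, against -0.03 to 0.23 in the other 2 edited groups. Results that rest on wt rescue were therefore also computed with replicate 1 alone in its group, an alternative chosen after seeing the data, in which that lone sample is taken to have the spread of the other groups. With 1 library in that group the standard error is larger, so a call can be lost there though the estimate holds. In the doxorubicin experiment the long-transcript median, relative to DMSO, was -0.01, -0.4 and -0.06 (log2) in Dox replicates 1, 2 and 3. It was -0.14, -0.02 and 0.19 in the DMSO libraries, and its part in the doxorubicin results was not tested. In bulk RNA, fewer cells that express a gene and less RNA per cell cannot be told apart.

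The stretches before the start of 3 members are shown because, as described further on, YEATS4 and MLLT3 fell with doxorubicin and MLLT1 did not change detectably. They are the 250 bases before the RefSeq start on GRCh38.p14, 5′ to 3′ along the gene. YEATS4 is at chr12:69359493-69359742 on the plus strand, MLLT3 at chr9:20622500-20622749 and MLLT1 at chr19:6279976-6280225, both on the minus strand. The window listed for YEATS2 begins inside that gene and is not shown. Capitals mark matches to the motifs searched.
YEATS4: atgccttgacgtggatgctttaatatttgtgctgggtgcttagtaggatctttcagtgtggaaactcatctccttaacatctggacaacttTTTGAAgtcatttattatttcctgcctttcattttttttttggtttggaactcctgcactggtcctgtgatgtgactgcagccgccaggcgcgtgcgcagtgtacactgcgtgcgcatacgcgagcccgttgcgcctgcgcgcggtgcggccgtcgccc
MLLT3: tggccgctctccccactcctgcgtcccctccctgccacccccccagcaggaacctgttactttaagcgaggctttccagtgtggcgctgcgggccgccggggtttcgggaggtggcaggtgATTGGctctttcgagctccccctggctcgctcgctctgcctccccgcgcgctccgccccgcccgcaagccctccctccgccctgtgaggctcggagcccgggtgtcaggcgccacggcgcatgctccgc
MLLT1: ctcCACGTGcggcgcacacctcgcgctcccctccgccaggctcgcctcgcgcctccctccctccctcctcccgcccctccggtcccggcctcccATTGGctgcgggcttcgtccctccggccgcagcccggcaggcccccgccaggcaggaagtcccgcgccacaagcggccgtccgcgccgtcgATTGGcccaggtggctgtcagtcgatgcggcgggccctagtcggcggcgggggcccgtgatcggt

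Motifs of cell cycle, MYC and basal promoter factors were searched on both strands, and no match overlapped another. The cell cycle homology region TTTGAA was found once in YEATS4, beginning 159 bases before the start, and it is in 13.3% of all 35116 RefSeq windows of this length. The E-box CACGTG, a site type bound by MYC, was found once in MLLT1, 247 bases before the start, and is in 6.34% of windows. The CCAAT box, searched as CCAAT, was found 2 times in MLLT1 and 1 time in MLLT3, each on the other strand and so printed as ATTGG, and is in 32.0% of windows. The E2F strings TTTCGCGC, TTTGGCGC, TTTCCCGC and TTTGCCGC (in 2.79% of windows together) and the NRF1 core motif (1.03%) had no match in the 3 windows. The windows also differed in base composition, with 51.6% G and C in YEATS4, 72.0% in MLLT3 and 77.2% in MLLT1, and with 17, 24 and 34 CG pairs.

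YEATS4, the targeted gene, was reduced but not absent in the knockout line. It stood at 625, 608 and 621 normalized reads in the 3 WT libraries and at 386, 337 and 325 in the 3 GAS41-KO libraries. Every knockout library was below every WT library. The mean was 618 ± 8.98 in WT and 349 ± 32.3 in GAS41-KO, or 56.5% of WT (log2 change -0.64, 95% interval -0.79 to -0.48, limma adjusted p = 2.09e-06). A gene-level count does not show whether the remaining RNA can make a protein, so it checks the direction of the label and not the loss of GAS41. Of all tested genes, 3.25% fell by as much or more in this comparison.

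The transgenes brought YEATS4 RNA above the WT level in both rescue lines. The wt rescue libraries held 2887, 3500 and 3372 normalized reads and the mut rescue libraries 2551, 2358 and 2538, so the 4 groups of the experiment did not overlap for this gene. Reads of the endogenous gene and of the transgene share 1 row and cannot be told apart. The mean rose 9.31-fold over GAS41-KO in wt rescue, to 3253 ± 323 (log2 change 2.79, interval 2.63 to 2.94, limma adjusted p = 3.32e-14). In mut rescue it rose 7.11-fold, to 2482 ± 108 (2.42, interval 2.27 to 2.57, limma adjusted p = 3.87e-12). Both comparisons share the GAS41-KO libraries. Against WT the folds were 5.26 and 4.01 (limma adjusted p = 1.63e-11 and 1.11e-11). The wt rescue log2 changes with replicate 1 alone were 2.63 over GAS41-KO and 1.99 over WT.

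The line with the mutant transgene held less YEATS4 RNA than the line with the normal one. The level in mut rescue was 76.3% of that in wt rescue (log2 change -0.37, interval -0.52 to -0.21, limma adjusted p = 0.000443), with no overlap between the groups. The 2 rescue lines therefore differed both in the YEATS domain and in the amount of GAS41 RNA, and these cannot be told apart in any comparison between them. With wt rescue replicate 1 alone in its group the difference was -0.21 and was no longer called (limma adjusted p = 0.0512). From lowest to highest the order was GAS41-KO, WT, mut rescue and wt rescue, and each neighbouring pair was called with all libraries.

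**Figure D1:**
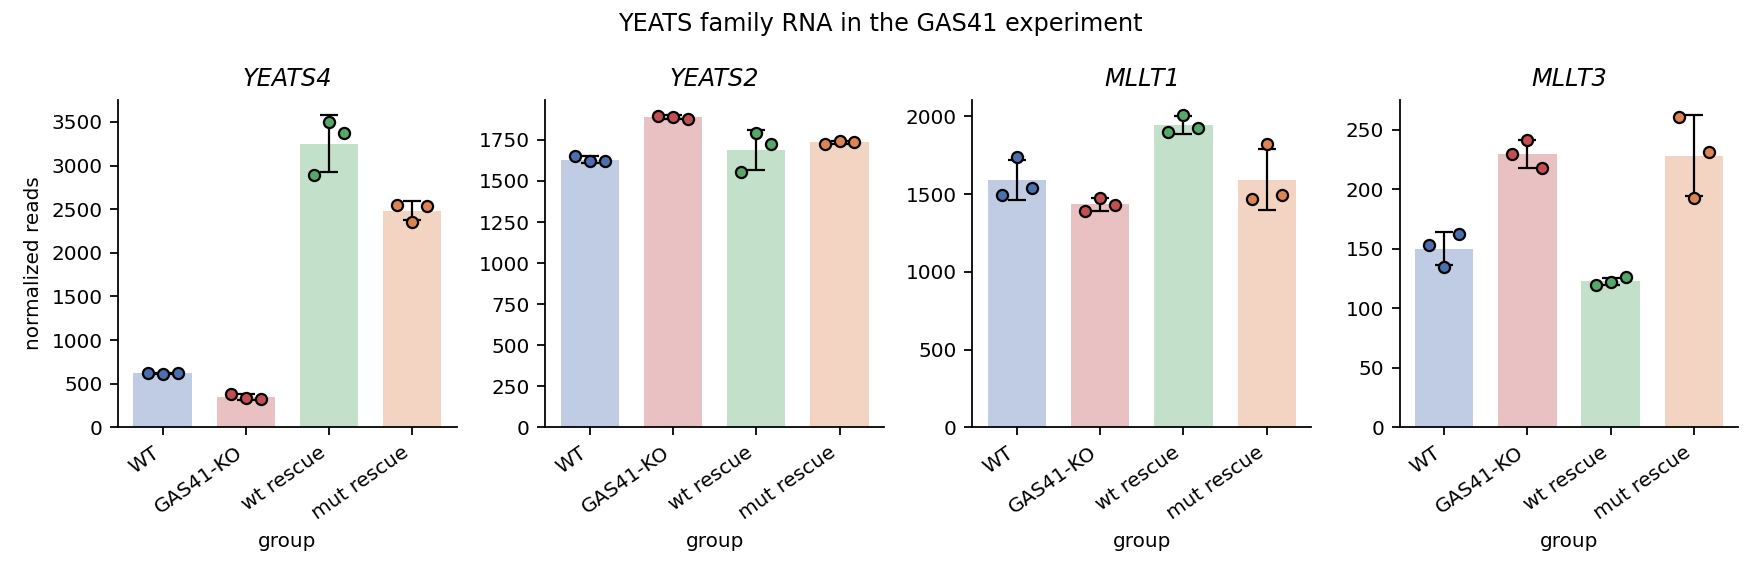
Normalized reads of the 4 YEATS genes in the GAS41 experiment, 1 panel per gene with its own axis from 0; bars are means, error bars are SD over 3 libraries and points are libraries in the order of replicates 1, 2 and 3. YEATS4 is lowest in GAS41-KO (349) and highest in wt rescue (3253), while MLLT3 is high in GAS41-KO and mut rescue and low in WT and wt rescue.

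MLLT3, the gene of the AF9 reader, was higher in the knockout line and lower in the line rescued with normal GAS41. It stood at 153, 135 and 162 normalized reads in WT and at 229, 242 and 218 in GAS41-KO. All knockout libraries lay above all WT libraries. The means were 150.0 ± 13.8 and 229.7 ± 11.7, a 1.53-fold rise (log2 change 0.38, interval 0.23 to 0.52, limma adjusted p = 0.000248). On the deposited scale, which compresses this gene, 24.3% of tested genes changed by as much or more in either direction in this comparison. With voom on the recovered reads, which does not compress low genes, the log2 change was 0.62 here, -0.9 in wt rescue over GAS41-KO, 0.88 in mut rescue over wt rescue and -0.58 with doxorubicin.

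In wt rescue MLLT3 was at 120, 122 and 126 normalized reads, below every GAS41-KO and every WT library. The mean of 122 ± 3.23 was 53.3% of that in GAS41-KO (log2 change -0.54, interval -0.68 to -0.39, limma adjusted p = 5.02e-06), and the change was -0.55 with replicate 1 alone. Against WT it was 81.7%, which was not called (log2 change -0.16, interval -0.31 to -0.01, limma adjusted p = 0.0662). That call depended on the setting, since the adjusted p was 0.0349 with voom and upper-quartile factors, 0.0486 with these 2 groups alone in the fit and 0.0472 without WT replicate 2, but 0.238 with wt rescue replicate 1 alone.

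No difference in MLLT3 was detected between mut rescue and GAS41-KO. Its libraries held 260, 193 and 231 normalized reads, a wide spread that covers the GAS41-KO values. The mean of 228 ± 34.0 differed from GAS41-KO by -0.01 log2 (interval -0.16 to 0.14, limma adjusted p = 0.943). It was 1.86-fold higher than in wt rescue (log2 change 0.52, interval 0.38 to 0.67, limma adjusted p = 9.51e-06) and 1.52-fold higher than in WT (0.37, limma adjusted p = 0.000413), with no overlap in either case. The difference between the rescue lines was 0.54 with wt rescue replicate 1 alone in its group (limma adjusted p = 0.000355). From lowest to highest the order was wt rescue, WT, mut rescue and GAS41-KO. The 2 lower groups did not differ beyond the threshold, nor did the 2 upper ones.

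MLLT1, the gene of the ENL reader, had the opposite order to its paralog at the low and high ends. It was at 1494, 1740 and 1539 normalized reads in WT, at 1393, 1477 and 1431 in GAS41-KO, at 1896, 2006 and 1927 in wt rescue and at 1469, 1820 and 1491 in mut rescue. Replicate 2 was the highest library in each of the 4 groups, and it stood apart from the other 2 libraries in WT and in mut rescue. MLLT3 was lowest in replicate 2 in those same 2 groups, and whether these libraries share a technical source was not tested. The knockout libraries lay below all WT libraries, the closest by a small margin. The change in GAS41-KO was not called with all groups in the fit (log2 change -0.13, interval -0.3 to 0.03, limma adjusted p = 0.156) and was called with WT and GAS41-KO alone in it (limma adjusted p = 0.00407).

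MLLT1 rose 1.36-fold from GAS41-KO to wt rescue, from 1434 ± 42.1 to 1943 ± 56.4 (log2 change 0.4, interval 0.24 to 0.57, limma adjusted p = 0.000243), and by 0.37 log2 with replicate 1 alone (limma adjusted p = 0.00608). The wt rescue level was also 1.22-fold above WT (limma adjusted p = 0.00898), and mut rescue was at 82.0% of wt rescue (log2 change -0.27, limma adjusted p = 0.00644). These last 2 calls were lost after quantile normalization (log2 changes 0.16 and -0.17, limma adjusted p = 0.0962 and 0.0637) and with wt rescue replicate 1 alone (0.24 and -0.24, limma adjusted p = 0.126 and 0.0726). The 2 means of mut rescue and WT, 1593 ± 197 and 1591 ± 131, differed by less than their spread (interval -0.16 to 0.16). From lowest to highest the order was GAS41-KO, WT, mut rescue and wt rescue, and of neighbours only the last 2 differed past the threshold.

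Because ENL and AF9 bind the same partners, the reads of their genes were also set against each other within each library, a ratio that no size factor changes. There were 16.5, 16.4 and 15.2 MLLT3 reads per 100 MLLT1 reads in GAS41-KO against 10.2, 7.76 and 10.5 in WT. The wt rescue libraries had 6.30, 6.08 and 6.53, the lowest of the experiment, and the mut rescue libraries 17.7, 10.6 and 15.5. The log2 ratio was 0.77 higher in GAS41-KO than in WT, and from GAS41-KO to wt rescue it fell by 1.34. It was 1.18 higher in mut rescue than in wt rescue, and none of these pairs of groups overlapped. With wt rescue replicate 1 alone these last 2 differences were -1.35 and 1.18. With all libraries each had a two-sided exact permutation p of 0.1, which is the smallest that 3 against 3 libraries allow, so this test cannot pass 0.05. In mut rescue against GAS41-KO the ratio differed by -0.17 and the groups overlapped (exact permutation p = 0.8).

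**Figure D2:**
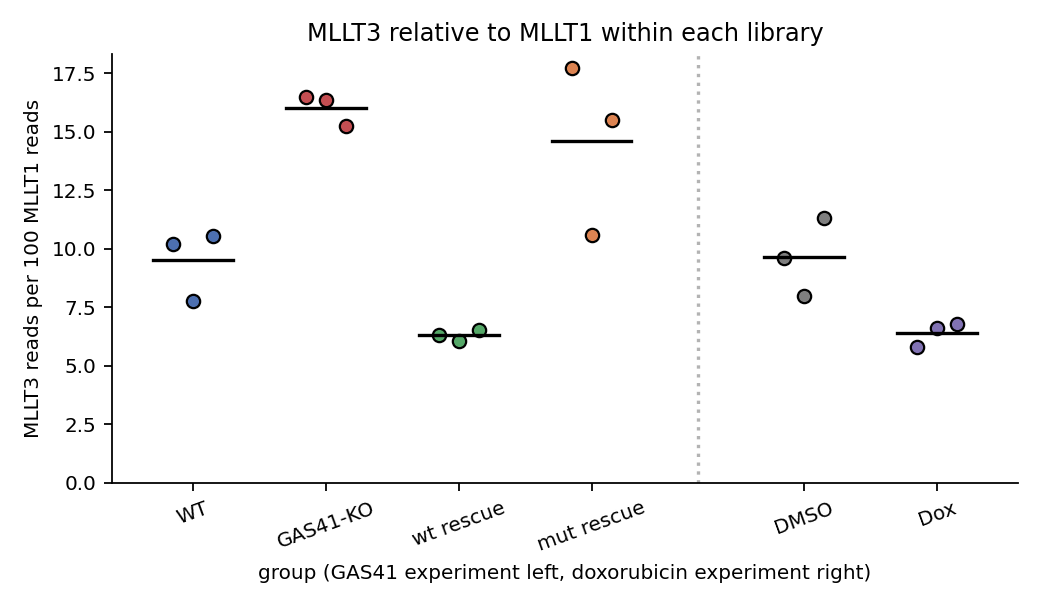
MLLT3 reads per 100 MLLT1 reads in each library, with the group mean as a line, for the GAS41 experiment (left) and the doxorubicin experiment (right). GAS41-KO lies at 15.2 to 16.5 and wt rescue at 6.08 to 6.53, while mut rescue spreads from 10.6 to 17.7.

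YEATS2, the ATAC scaffold, was higher in the knockout line by a small amount. Over the 12 GAS41 libraries its log2 SD was 0.086, against 0.175 for MLLT1, 0.253 for MLLT3 and 1.226 for YEATS4. It was at 1653, 1619 and 1619 normalized reads in WT and at 1898, 1892 and 1875 in GAS41-KO, so the groups did not overlap although the difference was small. The rise was 1.16-fold, from 1630.2 ± 19.3 to 1888 ± 11.8 (log2 change 0.2, interval 0.07 to 0.32, limma adjusted p = 0.01), and 49.4% of tested genes changed by as much or more in either direction.

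In wt rescue YEATS2 was at 1555, 1793 and 1724 normalized reads, or 89.5% of GAS41-KO (log2 change -0.15, interval -0.27 to -0.03, limma adjusted p = 0.0332). This call was lost without any 1 of the GAS41-KO replicates 1, 2 and 3 or the wt rescue replicates 1 and 3, with adjusted p up to 0.104 (log2 change -0.09 without wt rescue replicate 1), and with these 2 groups alone in the fit (adjusted p = 0.0671). With wt rescue replicate 1 alone in its group the change was -0.26 (limma adjusted p = 0.00365). In mut rescue it was at 1722, 1745 and 1736, which was not called against GAS41-KO (log2 change -0.11, interval -0.24 to 0.01, limma adjusted p = 0.221) or against wt rescue (0.04, interval -0.09 to 0.16). The order from low to high was WT, wt rescue, mut rescue and GAS41-KO, with no neighbours called apart. A gene on the opposite strand, YEATS2-AS1, overlaps YEATS2 in RefSeq, and whether the counting used the strand is not given in the sources used here.

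Most of these comparisons called a large share of all genes, so a call alone sets a member apart little. Member counts of the GAS41 experiment include YEATS4, the targeted gene, whose row holds the transgene in both rescue lines. In GAS41-KO over WT 3 members were called, 2 higher and 1 lower, and 4 had groups that did not overlap, beside 52.6% of all genes called (26.0% up, 26.6% down) and 69.0% not overlapping. In wt rescue over GAS41-KO 4 were called, 2 in each direction, and 4 did not overlap, with shares over all genes of 66.0% called, 33.0% in each direction, and 68.8% not overlapping.

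The comparison of mut rescue with GAS41-KO called few genes. Only YEATS4 was called, higher, and 2 members did not overlap, beside 14.9% of all genes called (5.92% up, 9.0% down) and 33.7% not overlapping. The number of genes called there, 2164, ran from 1271 to 2367 with 1 library left out, and was 1271, 1364 and 1408 without GAS41-KO replicates 3, 2 and 1 and 1413 without mut rescue replicate 1. In mut rescue over wt rescue 3 members were called, 1 higher and 2 lower, and 3 did not overlap, beside 61.1% of all genes called, 29.8% higher and 31.3% lower, and 57.9% not overlapping. Against WT, wt rescue had 2 members called, both higher, and 3 not overlapping, beside 50.1% called, 27.4% higher and 22.7% lower, and 57.3% not overlapping, and genes called fell from 7267 to 2326 with wt rescue replicate 1 alone. Against WT, mut rescue had the same counts of members, beside 46.3% called, 23.5% higher and 22.9% lower, and 56.0% not overlapping. YEATS4 was among the members called in every GAS41 comparison. Against WT or GAS41-KO its row was edited or holds the transgene, so those calls are not read as results about the family. In wt rescue over WT, 0.00689% of tested genes, which is YEATS4 itself, had a log2 change as large in either direction.

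**Figure D3:**
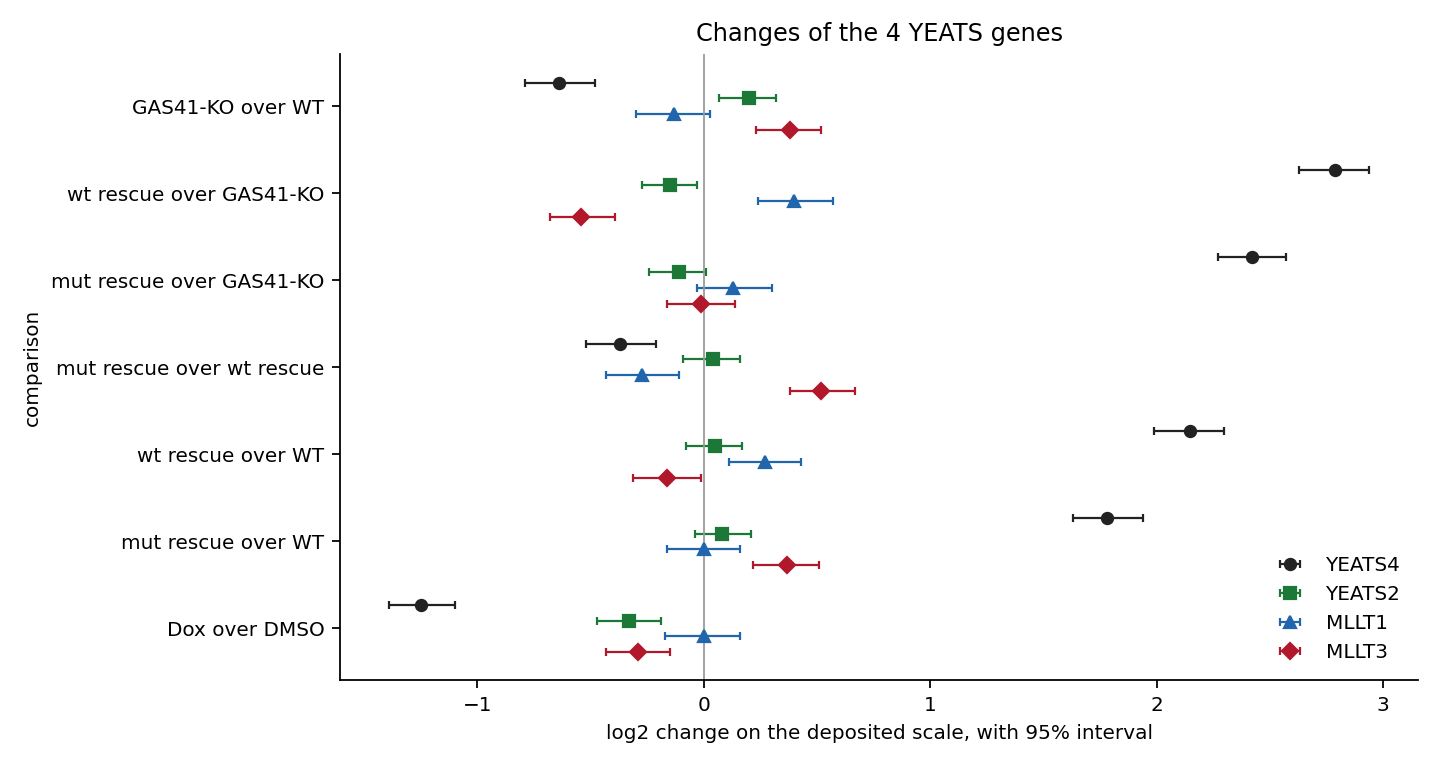
Log2 change on the deposited scale of each YEATS gene in 7 comparisons, with points for estimates and bars for the 95% interval. YEATS4 spans -1.25 (Dox over DMSO) to 2.79 (wt rescue over GAS41-KO), while the changes of YEATS2, MLLT1 and MLLT3 lie between -0.54 and 0.52.

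With doxorubicin YEATS4 fell to 27.7% of its DMSO level. It went from 694, 612 and 698 normalized reads in the DMSO libraries to 173, 193 and 188 in the Dox libraries. The lowest DMSO library was more than 3 times the highest Dox library. The mean fell from 668 ± 48.3 to 185 ± 10.7 (log2 change -1.25, interval -1.39 to -1.1, limma adjusted p = 3.58e-09). The tables of the 2 experiments were normalized separately and made on different sequencers, so this fall was not compared with that in the knockout line. Of all tested genes 0.634% fell by as much or more with doxorubicin.

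MLLT3 and YEATS2 fell as well, by less. MLLT3 was at 185, 151 and 179 normalized reads with DMSO and at 104, 120 and 119 with doxorubicin, a mean of 114 ± 9.26 that was 66.6% of 172 ± 18.4 (log2 change -0.29, interval -0.43 to -0.15, limma adjusted p = 0.00121). YEATS2 was at 1347, 1439 and 1460 with DMSO and at 1121, 1084 and 1054 with doxorubicin, or 76.7% (log2 change -0.33, interval -0.47 to -0.19, limma adjusted p = 0.000557). Neither gene had overlapping groups.

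MLLT1 showed no detectable change with doxorubicin. It was at 1924, 1891 and 1584 normalized reads with DMSO and at 1786, 1820 and 1760 with doxorubicin, where the treated libraries lie inside the range of the controls (interval -0.17 to 0.16, limma adjusted p = 0.969). The MLLT3 to MLLT1 log2 ratio was lower by 0.58 (from 9.62, 7.97 and 11.3 to 5.81, 6.60 and 6.78 MLLT3 reads per 100 MLLT1 reads; exact permutation p = 0.1). Of the 4 members 3 were called, all lower, and 3 did not overlap, beside 65.7% of all genes called (32.3% up, 33.4% down) and 69.1% not overlapping. Colon epithelium markers summed to between 76400 and 92800 normalized reads with DMSO and between 152000 and 172000 with doxorubicin, and their part in these changes was not tested.

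**Figure D4:**
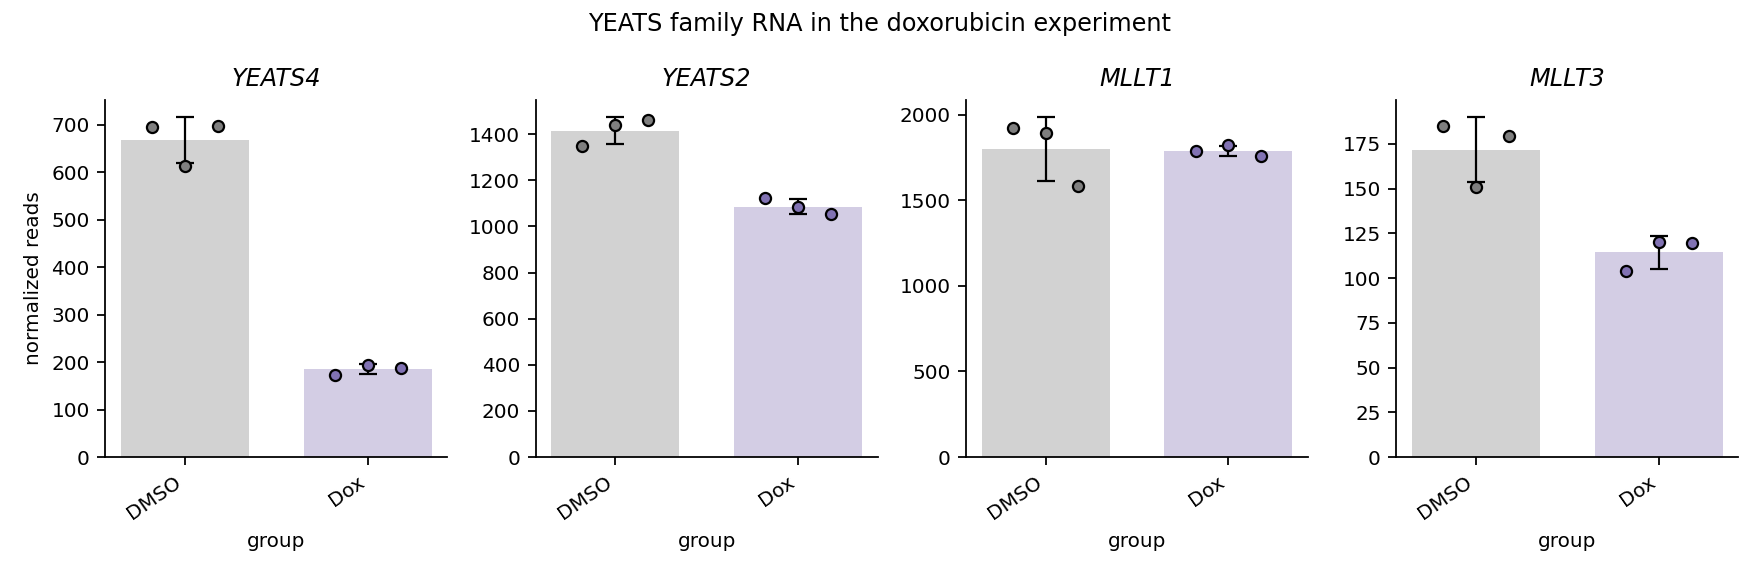
Normalized reads of the 4 YEATS genes in the doxorubicin experiment, 1 panel per gene with its own axis from 0; bars are means, error bars are SD over 3 libraries and points are libraries. YEATS4 drops from 668 to 185, MLLT3 and YEATS2 are lower in every Dox library, and the MLLT1 groups overlap.

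Partner genes of GAS41 in the TIP60 and SRCAP complexes mostly fell with doxorubicin. Of 20 genes, all tested, 14 fell and 1 rose, where 33.4% and 32.3% of all tested genes did, and the median log2 change was -0.28 against -0.01 over all genes. ACTL6A, an actin-related subunit, went from 1728 ± 135 to 836 ± 24.9 normalized reads (limma adjusted p = 1.5e-07). MORF4L2, an MRG-domain subunit, went from 6362 ± 700 to 2990 ± 74.2 (limma adjusted p = 1.69e-07), and the TIP60 enzyme gene KAT5 from 760 ± 49.2 to 399 ± 13.7 (limma adjusted p = 7.52e-07). The only gene called higher was DMAP1, which rose 1.51-fold to 598 ± 24.9, and 5 genes, among them SRCAP and EP400, were not called.

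In the GAS41 experiment the same list was divided in the knockout line, while more of its genes rose than fell from GAS41-KO to either rescue line. In GAS41-KO 4 rose and 5 fell, where 26.0% and 26.6% of all tested genes did, with RUVBL1, a helicase of both complexes, at 66.6% of WT (limma adjusted p = 7.1e-06) and the scaffold gene EPC1 1.36-fold higher (limma adjusted p = 0.000157). In wt rescue over GAS41-KO 11 rose and 4 fell, where 33.0% of all tested genes did in each direction, and RUVBL1 rose 2.07-fold to 4904 ± 537 (limma adjusted p = 6.94e-09). The counts were 9 and 3 with wt rescue replicate 1 alone, beside 3812 and 3618 of all 14476 genes tested then, and RUVBL1 changed by 0.82 log2 (limma adjusted p = 6.82e-08). In mut rescue over GAS41-KO 4 rose and none fell, where 5.92% and 9.0% of all tested genes did. RUVBL1 rose 1.18-fold there (limma adjusted p = 0.0405). In wt rescue over WT 12 rose and 1 fell, where 27.4% and 22.7% of all tested genes did. Most calls over the 4 partner lists in that comparison, and most over all genes, were lost with wt rescue replicate 1 alone. EPC1 was not called in wt rescue over GAS41-KO (log2 change -0.09, limma adjusted p = 0.183). Its wt rescue level was 1.25-fold above WT (limma adjusted p = 0.00305). Between the rescue lines RUVBL1 was at 57.2% in mut rescue of its wt rescue level (limma adjusted p = 2.39e-07), a log2 change of -0.77 that was -0.59 with wt rescue replicate 1 alone (limma adjusted p = 4.87e-06).

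Among the 12 ATAC partners of YEATS2 the 2 alternative acetyltransferase genes moved apart in the knockout line. In GAS41-KO 2 rose and 6 fell, where 26.0% and 26.6% of tested genes did. KAT2B rose 2.38-fold, from 128 ± 7.43 to 304 ± 28.2 normalized reads (limma adjusted p = 7.25e-08), and KAT2A fell from 1015 ± 49.4 to 607 ± 31.5 (limma adjusted p = 3.98e-07). In wt rescue over GAS41-KO 6 rose and 3 fell, beside 33.0% of all genes in each direction, with KAT2B down to 89.3 ± 2.86 and KAT2A up to 1128 ± 20.5 (limma adjusted p = 1.87e-09 and 2.86e-08). With wt rescue replicate 1 alone these changes were -1.01 and 0.74 log2. Fewer genes were called there, both in the list and over all genes. In mut rescue KAT2B was at 243 ± 28.1 and KAT2A at 722 ± 51.5, each between the GAS41-KO and WT means. Over GAS41-KO these were log2 changes of -0.22 and 0.21 (limma adjusted p = 0.0328 and 0.0341). Of the list 3 rose and 1 fell in that comparison, where 5.92% and 9.0% of all tested genes did. With doxorubicin 3 rose and 7 fell, where 32.3% and 33.4% of all tested genes did, and both enzyme genes rose, KAT2B 4.25-fold to 545 ± 54.3 (limma adjusted p = 4.34e-09) and KAT2A 1.34-fold (limma adjusted p = 0.000447).

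Genes listed for the super elongation and DOT1L complexes, which ENL and AF9 bind, were nearly all called with doxorubicin. The list also holds HEXIM1 (called higher) and LARP7 (not called), which are not subunits of these complexes. Of 16 genes 10 rose and 5 fell, where 32.3% and 33.4% of all tested genes did, and the median was 0.26 against -0.01 over all genes. In this list the elongation factor genes ELL, ELL2 and ELL3 rose 2.11-fold, 2.27-fold and 2.31-fold (limma adjusted p = 1.32e-07, 9.81e-08 and 5.77e-08). MLLT10, a cofactor of DOT1L, fell from 934 ± 50.7 to 584 ± 36.2 (limma adjusted p = 1.13e-05). In GAS41-KO 5 rose and 4 fell, shares near the 26.0% and 26.6% of all genes. The scaffold gene AFF4 rose 1.53-fold to 2834 ± 35.3 (limma adjusted p = 6.64e-06), and DOT1L fell from 1191 ± 99.4 to 834 ± 34.7 (limma adjusted p = 0.000112). In wt rescue over GAS41-KO, with 5 rises and 5 falls beside 33.0% of all genes in each direction, AFF4 went down to 1646 ± 117 and DOT1L up to 1481 ± 18.9 (limma adjusted p = 3.07e-07 and 4.05e-07). Most of the 5 rises were no longer called with wt rescue replicate 1 alone, and calls over all genes were also fewer. AFF4 and DOT1L changed by -0.63 and 0.72 log2 there.

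Other acyl-lysine readers, those with a bromodomain or a double PHD finger, had few calls in the knockout line. Of 21 genes 2 rose and 3 fell in GAS41-KO, where 52.6% of all tested genes were called, a difference that was not tested. BRD7, a subunit of a SWI/SNF remodeller, fell from 2146 ± 44.1 to 1131 ± 57.6 (limma adjusted p = 4.3e-09). It rose 1.21-fold from GAS41-KO to wt rescue (limma adjusted p = 0.00112) but stayed at 63.9% of WT there (limma adjusted p = 2.4e-06). In mut rescue BRD7 was at 52.1% of WT (limma adjusted p = 4.6e-09). Of the list 3 rose and 7 fell in wt rescue over WT, beside 27.4% and 22.7% of all tested genes. In mut rescue over WT 3 rose and 4 fell, beside 23.5% and 22.9%. With doxorubicin 6 rose and 7 fell, beside 32.3% and 33.4% of all genes, with a median of 0.04. DPF1, a double PHD finger gene, rose 2.42-fold to 438 ± 33.7 (limma adjusted p = 1.23e-06), and TAF1, a subunit of the general factor TFIID, fell from 916 ± 103 to 544 ± 45.6 (limma adjusted p = 2.38e-05).

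**Figure D5:**
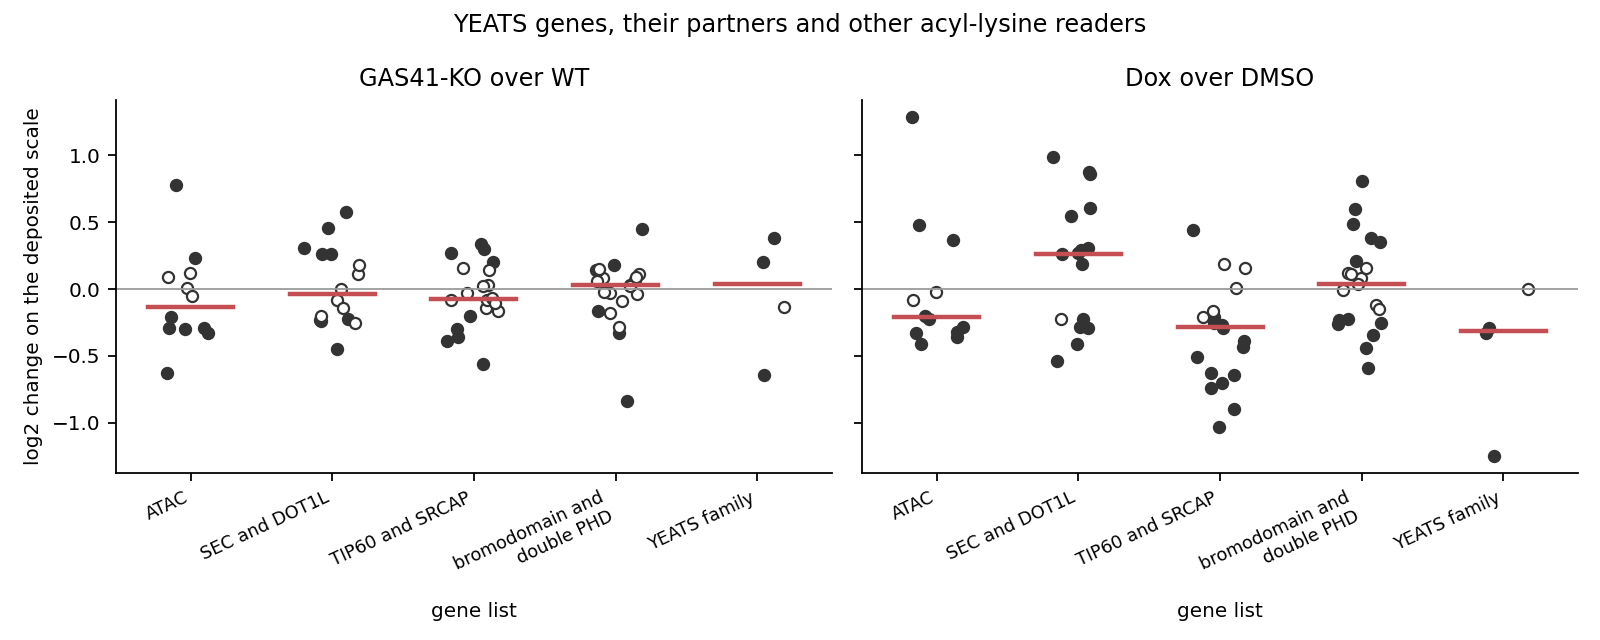
Log2 change on the deposited scale of each tested gene in 4 gene lists and the YEATS family, for GAS41-KO over WT (left) and Dox over DMSO (right); filled points were called, open points were not, and red lines are list medians. The TIP60 and SRCAP list has a median of -0.28 with doxorubicin and the super elongation and DOT1L list one of 0.26.

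Genes with the most similar course over the 12 GAS41 libraries were found for each member by the root mean square difference between deposited log2 values centred on each gene's own mean. The nearest to YEATS4 were KRT80, LAMB3 and CPA4, at differences of 0.63, 0.636 and 0.798, which is far, since YEATS4 itself varied with an SD of 1.226. For MLLT3 they were FAM228B, YPEL2 and LRP11, at 0.048, 0.052 and 0.057 against an SD of 0.253. LRP11, for example, had means of 652.5 normalized reads in WT, 907 in GAS41-KO, 595.0 in wt rescue and 902 in mut rescue. FAM228B, a gene of few reads, had means of 20.3, 48.8, 14.7 and 51.0 in the same order. Its folds were larger than those of MLLT3, so nearness on this compressed scale does not mean equal folds. For MLLT1 they were MID1IP1, ZC3H18 and HTRA2, at 0.038, 0.039 and 0.04 against 0.175, and for YEATS2 EFNA1, RIMKLA and NUAK1, at 0.032, 0.038 and 0.039 against 0.086.

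Counting error was largest for MLLT3, the member with the fewest reads in each group. The libraries held 105 to 261 MLLT3 reads. For these, counting alone gives a coefficient of variation between 6.58% and 9.34% by group, against 2.64% to 14.9% observed. The lowest, 2.64% in wt rescue, was below the 9.14% of counting alone, and GAS41-KO and Dox were also below it. For YEATS2, with 1065 to 1911 reads per library, counting alone gives 2.30% to 3.03%. GAS41-KO, mut rescue and WT varied by 0.625%, 0.666% and 1.185%, each less than counting alone, while its other groups varied by more. A spread over 3 libraries is therefore itself imprecise, and the tests used a spread moderated over all genes.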

How the data were processed

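The authors' deposited tables, though called counts, hold log2 values after a variance-stabilizing transformation of normalized reads. The evidence is in the values: undoing the transformation returns whole reads, to within 0.01, for 100% of entries. One log2 unit over a table's minimum is 39.1 normalized reads for the GAS41 data and 52.6 for the doxorubicin data. The tools in the submitters' processing notes are DESeq2, HTSeq, TopHat2 2.1.0, Bowtie 1.0.1, Trimmomatic 0.36 and CASAVA 1.4, with the builds hg19 and mm9; no roles are stated. The labels' protocols give a BGISEQ-500 for the GAS41 libraries and an Illumina HiSeq for the others. ChIP and input samples (26) were not analysed here.

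Tests used limma 3.58.1 (R 4.3.3) on the deposited log2 values, with a prior variance that follows the mean level. A gene needed 10 recovered reads in 3 libraries, which left 14505 genes in the 12 GAS41 libraries and 14195 in the 6 doxorubicin libraries. Each experiment was fitted once, and p-values were adjusted by Benjamini and Hochberg's method over every tested gene. The procedure was also run on simulated reads in which few genes changed, so that run does not give its error rate in these data. Python 3.11.15 with scipy 1.17.1 gave the permutation tests, and matplotlib 3.10.9 the plots. Members and gene lists were chosen with earlier results of these data known. Members are named in every comparison. Of each partner list, up to 3 called genes per direction with the smallest p could be named, and for each member the 3 genes most like it. Promoter windows are RefSeq's, matched by symbol for all 4 members. The alternatives were no filter, a minimum of 50 reads, a replicate block, quantile normalization, voom with deposited or upper-quartile factors, 1 prior variance, the compared groups alone, each library left out, and wt rescue replicate 1 alone.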

Additional observations from a re-analysis of the deposited data

How the results depend on the processing

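All YEATS4 calls kept their side of the threshold under every alternative except 1, the difference between the rescue lines with wt rescue replicate 1 alone (-0.21). MLLT3 kept its calls in GAS41-KO over WT, wt rescue over GAS41-KO, mut rescue over wt rescue, mut rescue over WT and Dox over DMSO under every alternative run. Of the 232 member values under the other settings 216 kept direction and side of the threshold, as did 153 of 168 with 1 library left out. On the voom scale with deposited size factors the MLLT3 changes were larger, 0.62 in GAS41-KO over WT, -0.9 in wt rescue over GAS41-KO and -0.58 with doxorubicin; the deposited scale compresses genes of few reads by construction.

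Quantile normalization gave 0.02 for MLLT3 in mut rescue over GAS41-KO, 0.13 for YEATS2 in mut rescue over wt rescue (now called), -0.06 for YEATS2 in wt rescue over WT, 0.0 for MLLT1 with doxorubicin, and -0.17 and 0.16 for MLLT1 in mut rescue over wt rescue and wt rescue over WT (no longer called). Upper-quartile factors gave -0.02 for YEATS2 and -0.36 for MLLT3 (now called) in wt rescue over WT and 0.0 for MLLT1 in mut rescue over WT. They moved the median of all genes to -0.12 in wt rescue over GAS41-KO, and turned the calls in wt rescue over WT from 3978 higher and 3289 lower into 3002 and 3901. With the compared groups alone, MLLT1 was -0.13 in GAS41-KO over WT and MLLT3 -0.16 in wt rescue over WT (both now called), and YEATS2 -0.15 in wt rescue over GAS41-KO (no longer called). With wt rescue replicate 1 alone, MLLT1 was -0.24 in mut rescue over wt rescue and 0.24 in wt rescue over WT (neither called), YEATS2 was -0.06 in wt rescue over WT, and genes called in wt rescue over WT numbered 2326 against 7267. Of 46 partner genes called in wt rescue over GAS41-KO, 4 changed sign without a call (ZZZ3 0.15, CCNT2 0.07, MBTD1 0.0 and ATAD2B 0.07). Further partner calls were lost there. Partner calls were also fewer in mut rescue over wt rescue, and most were lost in wt rescue over WT. Calls over all genes were fewer in each of these comparisons. The cause was not tested for any of these.

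With each library left out in turn, values ran from -0.19 to -0.09 for YEATS2 in wt rescue over GAS41-KO, -0.02 to 0.08 for YEATS2 in mut rescue over wt rescue, -0.2 to -0.13 for MLLT3 in wt rescue over WT, -0.08 to 0.06 for MLLT3 in mut rescue over GAS41-KO, -0.09 to 0.06 for MLLT1 in mut rescue over WT and -0.08 to 0.04 for MLLT1 with doxorubicin. Genes called in mut rescue over GAS41-KO ran from 1271 to 2367, against 2164. The MLLT3 to MLLT1 log2 ratio in mut rescue over GAS41-KO ran from -0.32 to 0.05, and was 0.05 without mut rescue replicate 2.

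By the rule used, every same-numbered pair correlating above 0.1, replicate numbers did not pair the libraries, but part of the pattern was there. In the GAS41 experiment deviations from group means correlated above 0.1 in 6 of 6 same-numbered pairs of replicate 1 (0.136 to 0.231), 5 of 6 of replicate 2 (0.004 to 0.478) and 0 of 6 of replicate 3 (-0.39 to 0.093). A library correlated best with its own number in 21 of 36 cases. In the doxorubicin experiment the 3 correlations were -0.393, 0.083 and 0.15. With the replicate number as a block no member's call changed, the SE of MLLT1 changes in the GAS41 experiment was 0.059 in place of 0.077, the YEATS4 change in GAS41-KO was -0.64, and genes called were 7890 in GAS41-KO over WT and 9238 with doxorubicin.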
